A study of Mus musculus with 2 samples.

Results

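The Slc25 genes encode the mitochondrial carrier family, and their accessible chromatin was read from DNase-seq of newborn mouse kidney. All protein-coding autosomal genes of GENCODE release M21 whose symbol starts with Slc25a were taken, which gave 43 of 20807 autosomal protein-coding genes. The study holds 1 group of 2 biological replicates: kidney tissue of strain B6NCrl at postnatal day 0, with no treatment or engineered allele named and sex not recorded. Both replicates carry the same donor record in the labels, and the spread between them may therefore be only technical. DNase I cuts DNA that is free of nucleosomes, and a peak of cuts marks an accessible promoter, enhancer or insulator. Kidney is a mixture of cell types, and the share of cells with an open site cannot be told apart from how open it is in each of them.

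Slc25 proteins move nucleotides, phosphate, carboxylates, amino acids and cofactors across the inner mitochondrial membrane, and so connect oxidative metabolism in the matrix with the cytosol. The tubule cells of kidney are rich in mitochondria, since reabsorption of salt and solutes takes much ATP. Some carriers are needed in nearly every cell, such as the phosphate carrier, while others are known mainly from a single tissue, such as the testis form of the ADP/ATP carrier. From general knowledge of adult tissues, 19 members were listed as ubiquitous, 15 as uneven across tissues and 9 as tissue-restricted. These lists were made with earlier results of these data known. A further listed carrier, Slc25a52, has no entry in this annotation.

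The replicates held 266133 and 257133 peaks, which merged into 197749 sites found in both. Median signal over all peaks of a replicate was 17.1 and 16.9 in replicates 1 and 2. Signal is the value the authors' peak caller gave each peak, with no depth stated, and all strongest promoter peaks of Slc25 genes were 150 bp wide, so signals of different genes refer to equal lengths. All 9 kidney marker genes had a peak at their promoter in both libraries, with mean signals from 24.0 at Umod to 115.7 at Wt1. Of all autosomal protein-coding genes, 73.4% had such a peak, with a median signal of 101.8, and only Wt1 was above that median. The marker count alone therefore does not set kidney apart. Of markers of other cells that a dissection can carry along, 0 of 2 liver, 1 of 3 leukocyte and 2 of 4 adrenal cortex genes had one. The adrenal genes were Cyp17a1 at a mean signal of 42.6 and Star at 40.2, and the leukocyte gene was Spi1 at 12.9. Both adrenal values were close to those of the kidney markers Gata3 at 42.8 and Lrp2 at 45.6. By their means they lay above Umod and below the other kidney markers. In replicate 2 alone, Cyp17a1 at 42.25 and Star at 40.5 lay above Gata3 at 40.1 and Lrp2 at 40.4. The adrenal genes Cyp11b1 and Cyp11b2, the liver genes Alb and Ahsg and the macrophage genes Adgre1 and C1qb had no promoter peak. The part of such cells in the Slc25 values was not tested.

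The sequences below are the strongest promoter peaks of replicate 1 in mouse assembly mm10, each written 5′ to 3′ in the direction of its gene. Capitals mark exact matches to the listed promoter motifs: CCAAT or ATTGG for the CCAAT box bound by NF-Y, GGGCGG or CCGCCC for the GC box bound by SP and KLF factors, CACGTG for the E-box, TGACGTCA for the cAMP response element and CCGGAAGT for ETS factors. Slc25a28 and Slc25a24 are shown as the ubiquitous carriers with the highest and lowest promoter signal. Slc25a47 and Slc25a29 share a single peak, which lies at the start of Slc25a29 and at the divergent start of non-coding transcripts of Slc25a47, a carrier known from liver, and Slc25a23 is a carrier whose family neighbour Slc25a41 had no promoter peak. Slc25a26, Slc25a35 and Slc25a48 were chosen after their values were seen, for their motifs and, at Slc25a48, for its low signal. The annotated untranslated bases at the end of these last sequences were left out.
Slc25a28 (chr19:43674961-43675110, minus strand): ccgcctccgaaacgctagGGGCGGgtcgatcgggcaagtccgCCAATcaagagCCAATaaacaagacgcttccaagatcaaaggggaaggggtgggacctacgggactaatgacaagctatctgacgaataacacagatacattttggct
Slc25a24 (chr3:109123301-109123450, plus strand): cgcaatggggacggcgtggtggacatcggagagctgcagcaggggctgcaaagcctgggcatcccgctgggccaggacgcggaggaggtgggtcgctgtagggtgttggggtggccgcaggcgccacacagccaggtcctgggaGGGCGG
Slc25a47 (chr12:108835901-108836050, plus strand): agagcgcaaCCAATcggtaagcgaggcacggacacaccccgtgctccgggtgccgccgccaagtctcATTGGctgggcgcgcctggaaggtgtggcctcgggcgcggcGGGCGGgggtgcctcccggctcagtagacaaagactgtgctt
Slc25a29 (chr12:108835901-108836050, minus strand): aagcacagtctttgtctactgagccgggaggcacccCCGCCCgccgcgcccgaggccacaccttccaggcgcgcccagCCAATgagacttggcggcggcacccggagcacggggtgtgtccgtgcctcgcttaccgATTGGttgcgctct
Slc25a23 (chr17:57060281-57060430, minus strand): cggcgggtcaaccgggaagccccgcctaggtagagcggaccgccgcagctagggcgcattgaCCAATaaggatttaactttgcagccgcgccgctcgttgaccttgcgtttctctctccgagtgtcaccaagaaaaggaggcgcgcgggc
Slc25a26 (chr6:94500241-94500330, plus strand): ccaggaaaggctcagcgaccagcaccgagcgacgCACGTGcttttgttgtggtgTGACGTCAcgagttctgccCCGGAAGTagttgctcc
Slc25a35 (chr11:68968021-68968130, plus strand): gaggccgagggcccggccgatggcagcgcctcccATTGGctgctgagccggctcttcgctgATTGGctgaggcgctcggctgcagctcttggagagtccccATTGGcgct
Slc25a48 (chr13:56438241-56438354, plus strand): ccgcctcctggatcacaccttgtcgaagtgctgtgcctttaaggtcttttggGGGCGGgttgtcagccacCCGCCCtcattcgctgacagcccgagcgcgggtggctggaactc

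Most Slc25 promoters were accessible in newborn kidney, and many had a signal above the median of all genes. A promoter peak is a peak within 1 kb of any transcription start site (TSS) of the gene, and the promoter signal is that of the strongest such peak. Of the 43 members, 37 (86.0%) had a promoter peak in both replicates, against 73.4% of all autosomal protein-coding genes. In replicate 1, 37 members had a peak, and in replicate 2, 38 had a peak. The background shares were 74.4% and 74.5%. The median promoter signal of the 37 was 134.5, against 101.8 for the 15262 genes with a peak in both. A mean signal of at least 100 was reached by 26 members (60.5%), against 37.3% of all genes, and at least 200 by 10 members (23.3%), against 10.7%. These comparisons of share and signal do not take promoter CpG content into account, which is given below. Weighted by the CpG content of the members, all genes would give a share of 92.1%, above the 86.0% of the members. No test was run, because the study has a single group and genes are not replicates.

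**Figure D1:**
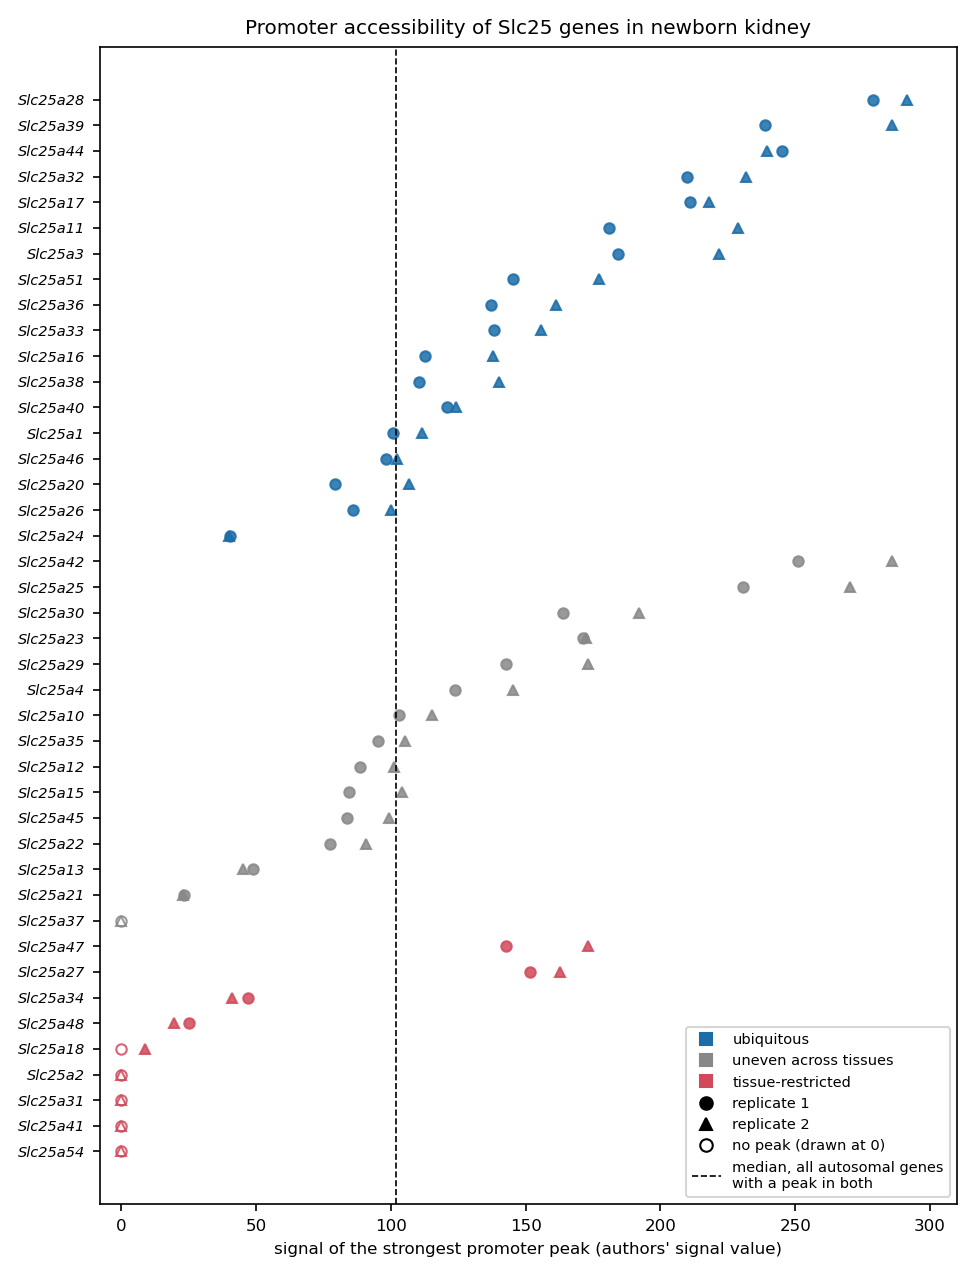
Signal of the strongest promoter peak (the authors' signal value, x axis) of 42 Slc25 genes in replicate 1 (circles) and replicate 2 (triangles), coloured by class, with open symbols at 0 for no peak. Every ubiquitous carrier drawn had a peak in both replicates, 4 of 9 restricted carriers did, and the dashed line is the median of 101.8 over all autosomal protein-coding genes with a peak in both.

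The replicates mostly placed the peaks of the members at the same positions. Of the 37 strongest peaks, 35 overlapped between replicates, and those of Slc25a21 and Slc25a24 did not. The signal was higher in replicate 2 for 31 of 37 members, with a median log2 ratio of replicate 2 to replicate 1 of 0.19. Over the promoters of all genes that median was 0.13, and over all shared autosomal sites it was -0.01. Among the members it ran from -0.35 at Slc25a48 to 0.43 at Slc25a20. The peaks sat close to the TSS: their centres lay a median of 63.5 bp from the nearest own TSS in replicate 1 and 55.5 bp in replicate 2, and 33 of the 37 lay upstream of it in replicate 1. The number of promoter peaks of a member ran from 1 to 9 per replicate, with a median of 3 in each.

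Carriers of cofactors, pyrimidine nucleotides, glutathione and iron had the highest median promoter signal of the role groups, by a small margin in replicate 1. Of 13 such members, 12 had a peak in both replicates (92.3%, against 73.4% of all genes), with a median signal of 187.8. The group median was 177.5 in replicate 1 and 197.5 in replicate 2. In the adenine nucleotide and phosphate group, the next highest, it was 171.4 and 172.3. The cofactor group also had the highest median CpG observed over expected, 0.81, a measure given below. The role groups were not matched for it. Slc25a28, mitoferrin-2, which brings iron into mitochondria, had the highest signal of all members, 278.7 in replicate 1 and 291.6 in replicate 2, above 98.0% of genes with a promoter peak. Slc25a42, a carrier of coenzyme A, followed with 251.2 and 285.9 in replicates 1 and 2. Slc25a39, which takes up glutathione, had 238.9 and 285.8.

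At Slc25a39 that strongest peak lay 649.5 bp upstream of the nearest annotated TSS, and the peak next to its TSSs had 87.8 in replicate 1 and 123.8 in replicate 2. Slc25a32, a folate and FAD carrier, had 209.9 and 231.8, in a peak shared with Dcaf13, meaning that a TSS of this other protein-coding gene lay within the same distance. Slc25a17 is the member found in peroxisomes, and its promoter had 211.1 and 217.8. All 5 cofactor carriers named so far were above 200 in both replicates.

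Other cofactor carriers lay lower. Slc25a51, the mitochondrial NAD carrier, had 145.1 in replicate 1 and 177.1 in replicate 2. The pyrimidine nucleotide carriers Slc25a36 and Slc25a33 had mean signals of 149.1 ± 17.1 and 147.0 ± 12.5 (SD, n = 2). Their means differed by less than the SD of either. Slc25a16, whose substrate is less settled, had a mean of 125.3 ± 17.7. Slc25a40, like Slc25a39 a glutathione carrier, had 120.9 and 124.0 in a peak shared with Dbf4, a gene of DNA replication. Slc25a26, which imports S-adenosylmethionine, had the lowest value of those with a peak, 86.1 and 99.9, from a single promoter peak.

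Slc25a37, mitoferrin-1, which supplies iron for heme in erythroid cells, was the only cofactor carrier and the only carrier outside the restricted list with no promoter peak in either replicate. Its TSS region could not be told apart from a second place in the genome. All 966 words of 36 bases, the length of the reads, within 500 bp of its TSS also occur elsewhere. An identical copy of the window lies 218.3 kb away on chromosome 14 at the annotated gene Gm16867, within an identical stretch of 125815 bp. Neither copy of the window held a peak in either replicate. The gene itself held 1 weak peak per replicate, with signals of 9.88 in replicate 1 and 9.06 in replicate 2.

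Of 284 autosomal genes whose TSS regions consist wholly of such repeated words, 2 (0.704%) had a promoter peak in both replicates, against 76.7% of genes with under 50% repeated words. Around every other member at most 13.4% of the words were repeated, a value reached at Slc25a41, and the 37 members with a peak are all among these 42. The sources used here do not say how the authors treated reads that map to several places, so no statement on the accessibility of the Slc25a37 promoter can be made, and the part of the copy in its missing peak was not tested.

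Among carriers of adenine nucleotides, phosphate and ATP-Mg, the ubiquitous and uneven members had promoter peaks and the restricted members had none. Of 8 members, 5 had a promoter peak in both replicates (62.5%, against 73.4% of all genes), with a median signal of 171.9. Slc25a25, a calcium-regulated ATP-Mg/phosphate carrier, had the highest, 230.6 in replicate 1 and 270.3 in replicate 2. It had accessible chromatin at separate groups of TSSs: besides that peak near its most 5′ TSS, a peak of 176.3 and 230.7 lay at a downstream start and a peak of 129.4 and 123.0 at another.

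Slc25a3, the phosphate carrier that feeds ATP synthase, had 184.4 in replicate 1 and 221.9 in replicate 2, centred 36.5 bp upstream of a TSS in both. Slc25a4, the ADP/ATP carrier of heart and muscle, had 123.9 and 145.1. Slc25a23, another ATP-Mg/phosphate carrier, had 171.4 and 172.3, in a peak 492.5 bp upstream of its TSS in replicate 1. These 3 promoters were all above the median of 101.8 over all genes in both replicates. At Slc25a23 the peak next to the TSS itself had only 60.1 in replicate 1 and 61.0 in replicate 2.

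Slc25a24, the ATP-Mg/phosphate carrier listed as ubiquitous, was the lowest of the ubiquitous class, with 40.4 in replicate 1 and 40.1 in replicate 2. Its accessibility was spread rather than placed in a single peak. In replicate 1, peaks of 39.2, 40.4 and 37.8 followed each other from 113.5 bp upstream to 513.5 bp downstream of its TSSs. Replicate 2 had 4 peaks of 35.2 to 40.1, from 93.5 bp upstream to 693.5 bp downstream. The strongest of these nearly equal peaks was not the same in both replicates, and the one printed above from replicate 1 starts in coding sequence, with 87 coding bases.

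The 3 restricted members of this group had no promoter peak in either replicate. Slc25a31 is the ADP/ATP carrier of testis, and its nearest peak lay 3.54 kb upstream with a signal of 11.2 in replicate 1 and 14.2 kb upstream with 13.3 in replicate 2. Slc25a41, an ATP-Mg/phosphate carrier known mainly from testis and brain, had its nearest peaks 5.26 kb upstream with 13.0 in replicate 1 and 3.19 kb downstream with 9.22 in replicate 2. Slc25a54, a further member of that branch, had its nearest peak 1.43 kb upstream with 14.0 in replicate 1 and 17.3 kb upstream with 73.8 in replicate 2.

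Carboxylate and acylcarnitine carriers were all accessible, with a wide range. All 5 showed a promoter peak in both replicates, against 73.4% of all genes, and their median signal was 106.1. Slc25a11, the oxoglutarate/malate carrier of the malate-aspartate shuttle, had 181.0 in replicate 1 and 228.9 in replicate 2, in a peak shared with the ubiquitin ligase gene Rnf167. Slc25a10, the dicarboxylate carrier, which is abundant in kidney and liver, had 103.2 and 115.1. Slc25a1, the citrate carrier, had 100.7 and 111.4, at 596.5 bp upstream of its most 5′ TSS. Both lay near the median of all genes. At Slc25a1 the peak next to its most 5′ TSSs had only 32.7 in replicate 1 and 37.6 in replicate 2.

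Slc25a20, the carnitine/acylcarnitine carrier that admits fatty acids for oxidation, had 79.3 in replicate 1 and 106.7 in replicate 2, the largest ratio between replicates of all members. Slc25a21, the oxodicarboxylate carrier, had only weak peaks, 23.1 and 22.8. In Slc25a21 the strongest peaks lay 896.5 bp downstream of a TSS in replicate 1 and 716.5 bp downstream in replicate 2. They did not overlap each other. Nearly equal peaks closer to the most 5′ TSS of Slc25a21 did overlap between replicates. Their signals were 21.2 in replicate 1, centred 96.5 bp downstream, and 22.6 in replicate 2, centred 136.5 bp downstream.

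Amino acid carriers ranged from some of the strongest promoters to none. Of 9 members, 7 had a promoter peak in both replicates (77.8%, against 73.4% of all genes), with a median signal of 94.9. Slc25a44, which carries branched-chain amino acids, had the highest, 245.0 in replicate 1 and 239.4 in replicate 2. Slc25a29, a carrier of basic amino acids, had 142.8 and 173.0. Slc25a38, which supplies glycine for heme synthesis, had 110.4 and 140.0.

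Amino acid carriers of the urea cycle and of aspartate and glutamate lay near or below the median of all genes. Slc25a12, the aspartate/glutamate carrier aralar, had 88.5 in replicate 1 and 101.3 in replicate 2, and its paralogue Slc25a13, citrin, had the lower values of 49.0 and 45.2. Slc25a15, the ornithine carrier, had 84.5 in replicate 1 and 104.3 in replicate 2. Slc25a22, a glutamate carrier, had 77.3 and 90.7. Its restricted paralogue Slc25a18, known mainly from brain, had no promoter peak in replicate 1 and a weak one of 8.89 in replicate 2. Slc25a2, another ornithine carrier, had no promoter peak, and its nearest peak, 5.49 kb upstream with 180.8 in replicate 1 and 5.51 kb upstream with 226.1 in replicate 2, counted as the promoter site of another gene.

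Members that shape the membrane, resemble uncoupling proteins or are less well defined all had a promoter peak. All 8 had one in both replicates, against 73.4% of all genes, with a median signal of 100.2. For Slc25a47 this rests on the starts of non-coding transcripts alone, as described below. Slc25a30, first described as a kidney mitochondrial carrier, had the highest, 163.8 in replicate 1 and 191.9 in replicate 2. Slc25a27, the uncoupling-like protein UCP4 of the nervous system, had 151.5 and 162.8 in a peak shared with Cyp39a1, an oxysterol hydroxylase gene. Slc25a47, known from liver, had 142.8 and 173.0, in the peak shared with Slc25a29.

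Slc25a46, an outer membrane protein that affects mitochondrial shape, had 98.0 in replicate 1 and 102.4 in replicate 2. Slc25a35, a little characterised carrier, had 95.2 and 105.2. Slc25a45, equally little known, had 83.7 and 99.5, so these promoters lay near or just below the median of all genes. At Slc25a45 the peak next to the most 5′ TSS had only 29.7 in each replicate. Slc25a34, a restricted carrier with no settled substrate, had a single peak of 47.1 and 41.0. Slc25a48, a restricted carrier linked to choline, had 24.98 and 19.6, close to the 23.1 and 22.8 of Slc25a21. These were the lowest of the 37 members with a peak in both replicates, and their means, 22.3 and 23.0, differed by less than the SD of 3.79 of Slc25a48.

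Set side by side, ubiquitous carriers had accessible promoters more often than restricted ones. All 19 ubiquitous carriers (100%) had a promoter peak in both replicates, against 4 of 9 restricted carriers (44.4%), a difference of 55.6 percentage points. Within replicate 1 the difference was 55.6 points and within replicate 2 it was 44.4, because Slc25a18 had its weak peak there (SD 7.86 between replicates). Of the 15 uneven carriers, 14 had a peak in both, Slc25a37 being the exception. The background share of 73.4% over all genes lay between the classes. Since the classes were listed with earlier results of these data known, the contrast is a description and no independent check.

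Signal was also highest in the ubiquitous class. The median promoter signal was 149.1 for the 19 ubiquitous carriers, 104.7 for the 14 uneven carriers with a peak and 100.6 for the 4 restricted carriers with a peak. The last is the midpoint between Slc25a47 and Slc25a27, with means of 157.9 and 157.1, and Slc25a34 and Slc25a48, with 44.1 and 22.3. Without replicate 1, where the weak peak of Slc25a18 enters, it was 41.0. The gap between the uneven and the restricted median was smaller than the spread between replicates. A mean of at least 100 was reached by 16 of 19 ubiquitous, 8 of 15 uneven and 2 of 9 restricted carriers. These are 84.2%, 53.3% and 22.2%, against 37.3% of all genes. A mean of at least 200 was reached by 8 ubiquitous (42.1%), 2 uneven (13.3%) and 0 restricted carriers, against 10.7% of all genes. The uneven share was thus close to that of all genes, and the restricted class is small. The classes overlapped: Slc25a24 at 40.4 and 40.1 lay below the restricted Slc25a47 and Slc25a27 in both replicates. It also lay narrowly below the restricted Slc25a34, at 47.1 in replicate 1 and 41.0 in replicate 2.

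Both strong restricted promoters were those of another gene as well. The peak of Slc25a47 is also the promoter peak of Slc25a29, and that of Slc25a27 the promoter peak of Cyp39a1. Without members that share their promoter peak, 2 of 7 restricted carriers had a peak, Slc25a34 and Slc25a48, with a median signal of 33.2, and the difference between the classes was 71.4 points. Such sharing was about as frequent elsewhere: 7 of 37 members (18.9%) shared their strongest peak, against 17.9% of genes with a promoter peak. The other sharing members were Slc25a11, Slc25a29, Slc25a32, Slc25a40 and Slc25a46.

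Slc25a47 shows how far the choice of TSS matters. Its most 5′ TSS lies 163 bp from that of Slc25a29, on the opposite strand of chromosome 12, and only non-coding processed transcripts start there. Its protein-coding transcripts start 15.1 kb further on, where replicate 1 had no more than a peak of 8.94, 993.5 bp upstream, and replicate 2 had none. Counted by protein-coding TSSs alone, Slc25a47 had no promoter peak in both replicates, 3 of 9 restricted carriers did, and the difference from the ubiquitous class was 66.7 points.

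**Figure D2:**
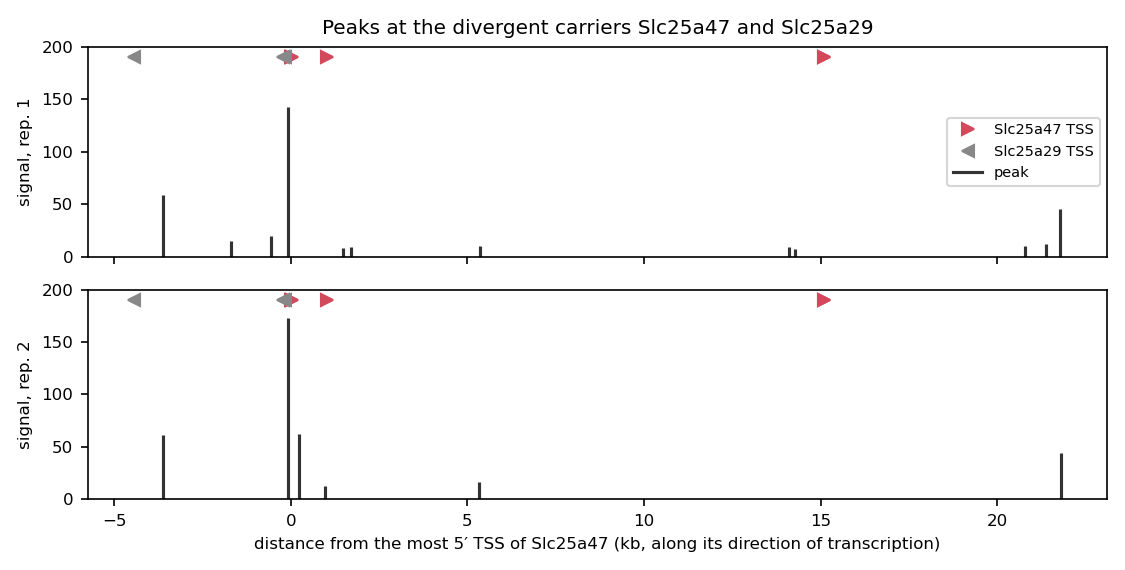
Signal of each peak (vertical lines, the authors' signal value) in replicate 1 (upper panel) and replicate 2 (lower panel) against distance in kb from the most 5′ TSS of Slc25a47, with arrowheads at the TSSs of Slc25a47 (right-pointing) and Slc25a29 (left-pointing). The tallest peak, at 142.8 and 173.0, stands between the divergent starts, and the protein-coding starts of Slc25a47 at 15.1 kb have only the weak peaks of replicate 1 before them.

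Promoter CpG content differed between the classes as well. Over all autosomal genes, the share with a promoter peak in both replicates was 19.9%, 57.5%, 92.1%, 98.1% and 99.2% from the lowest to the highest quintile of CpG observed over expected within 500 bp of the most 5′ TSS. The median promoter signal of genes with a peak rose in the same order: 37.8, 44.6, 86.0, 127.0 and 134.1. No member lay in the lowest quintile, while 12 lay in the fourth and 14 in the highest. The signals of the members and of the classes were not matched for CpG content. Of the ubiquitous carriers, 10 of 19 lay in the highest quintile and 0 in the 2 lowest, while 4 of 9 restricted carriers lay in the second quintile. Weighted by their own quintiles, all genes would give 96.8% for the ubiquitous class and 78.8% for the restricted class, against the 100% and 44.4% observed. For the uneven class the same figure was 94.0%, against 93.3% observed, and for all members it was 92.1%, against 86.0%. This match is coarse, since the second quintile spans values of 0.18 to 0.41. Of its restricted carriers, Slc25a18, Slc25a34 and Slc25a41 lay at 0.21 to 0.24 and Slc25a54 at 0.40. A finer match within quintiles was not made.

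Within quintiles, the members without a peak were Slc25a18, Slc25a41 and Slc25a54 in the second, Slc25a2 in the third, and Slc25a31 and Slc25a37 in the fourth. All 14 members in the highest quintile had a peak. The TSS of Slc25a31 lies in a CpG-rich stretch, with an observed-over-expected value of 0.75, in a quintile where 98.1% of all genes had a promoter peak. Slc25a34 was accessible at a value of 0.22, and Slc25a45 at 0.30.

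**Figure D3:**
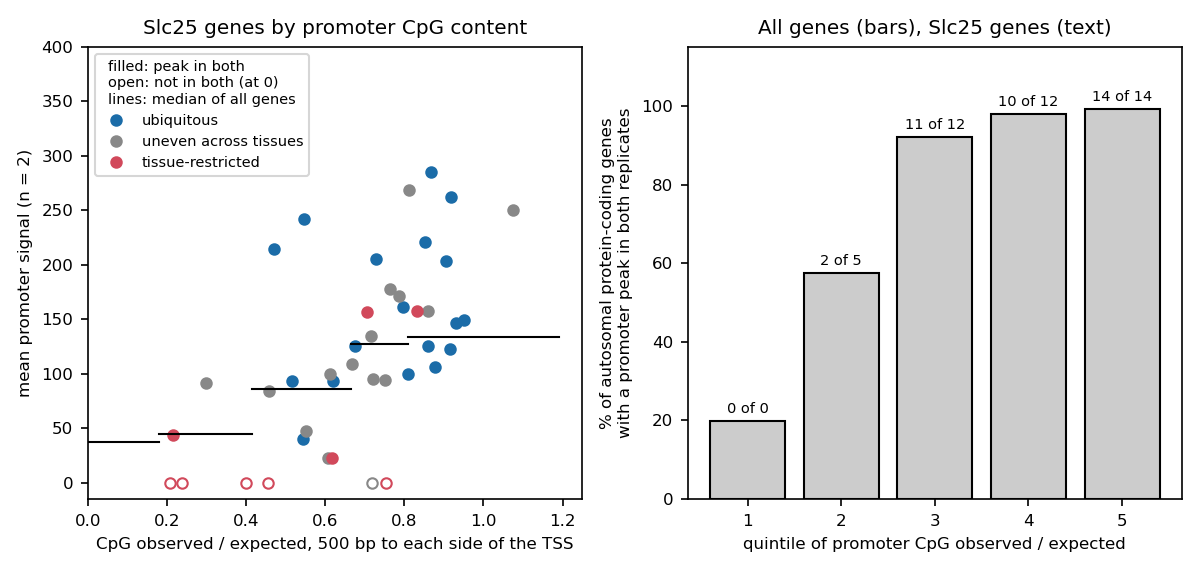
Left, mean promoter signal of 2 replicates (y axis, the authors' signal value) against promoter CpG observed over expected for 42 Slc25 genes, with open circles at 0 for genes without a peak in both replicates and lines at the median of all genes with a peak in each CpG quintile. Right, share of all autosomal protein-coding genes with a promoter peak in both replicates by CpG quintile, from 19.9% to 99.2%, with the count of Slc25 genes with such a peak written above each bar.

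The sequences under the strongest peaks had a base composition close to that of other promoters and held CCAAT boxes, GC boxes and E-boxes more often. The median GC content was 62.7% in the peaks of the members and 63.3% in those of other genes, and the median number of CpGs was 11 in both. A CCAAT box (CCAAT, either strand) stood in 19 of 37 peaks (51.4%), against 28.3% of the strongest promoter peaks of all genes. A GC box (GGGCGG, either strand) stood in 26 (70.3%), against 50.4%. No test was run on these shares, and the peak of Slc25a29 and Slc25a47 counts for both genes.

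CCAAT boxes recurred within single promoters. Slc25a35 held 3 of them in its peak, all in the ATTGG orientation printed above, and Slc25a28, Slc25a42 and the peak of Slc25a29 and Slc25a47 held 2 each. The box was present in 7 of 19 ubiquitous and in 3 of 4 accessible restricted carriers, Slc25a27, Slc25a34 and Slc25a47. All other members with the box were uneven carriers. The peaks of Slc25a27 and Slc25a47 are also promoter peaks of Cyp39a1 and Slc25a29. Slc25a48, the weakest restricted promoter among these 4, held GC boxes but no CCAAT box.

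The E-box CACGTG stood in 6 members (16.2%), against 6.19% of all genes. All 6 were ubiquitous carriers: Slc25a26, Slc25a32, Slc25a33, Slc25a36, Slc25a39 and Slc25a46. The cAMP response element TGACGTCA stood in Slc25a26 and Slc25a36 (5.41%, against 2.59%), and the ETS site CCGGAAGT in Slc25a20, Slc25a26 and Slc25a46 (8.11%, against 6.03%). Slc25a26 thus held an E-box, a cAMP response element and an ETS site within the 90 bases printed above. The words searched for the TATA box (TATAAA), ERR (TCAAGGTCA), NRF1, YY1, HNF1 and the DR1 element were in none of the 37 windows. These consensus words are rare under all promoter peaks, at most 2.65% for TATAAA, and a match or its absence says nothing on binding. No matches overlapped each other in the peaks of the members.

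Around the promoters, Slc25 genes had about as many distal accessible sites as other genes. A distal site is a site found in both replicates, more than 1 kb from any TSS and within 50 kb of the most 5′ TSS of the gene. The members had a median of 7 and a mean of 7.98 ± 5.32 (SD over 43 genes), against a median of 6 for all genes. At least 10 sites were found at 13 members (30.2%), against 32.1% of all genes. The median was 7 for ubiquitous, 8 for uneven and 6 for restricted carriers, and the order of ubiquitous and restricted carriers depended on the samples and list used. With 1 replicate left out at a time, the medians were 9 for ubiquitous and 10 for restricted carriers without replicate 1, and 8 and 9 without replicate 2. With the 3 genes the rule names as the restricted list, they were 7 and 11.

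**Figure D4:**
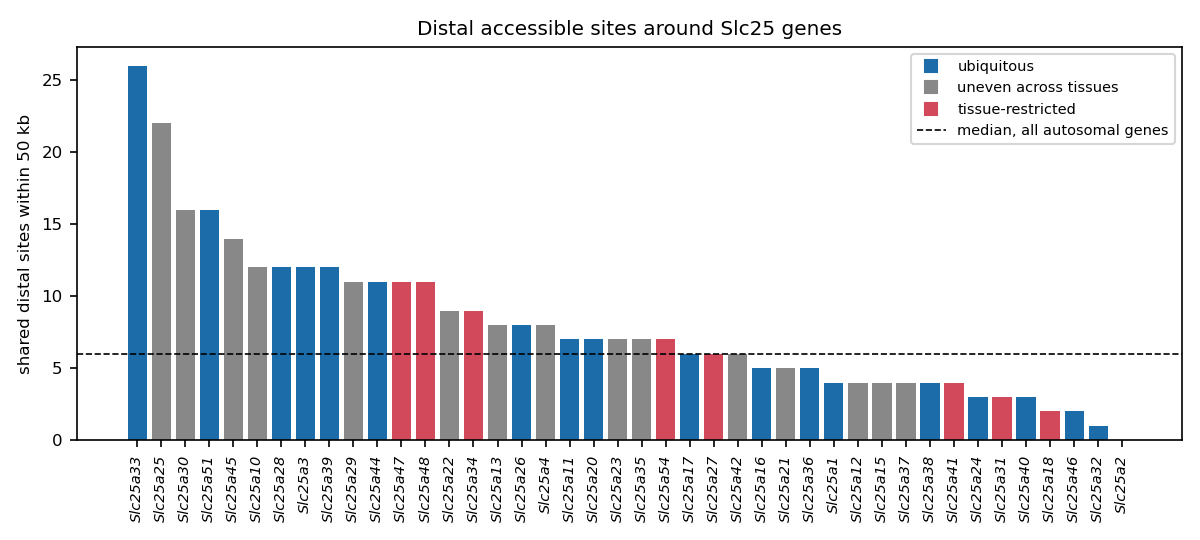
Number of distal accessible sites found in both replicates within 50 kb of the most 5′ TSS (y axis) for 42 Slc25 genes, coloured by class and ordered by count. The counts run from 26 at Slc25a33 to 0 at Slc25a2, the dashed line marks the median of 6 over all autosomal protein-coding genes, and all classes are found on both sides of it.

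Slc25a33, the pyrimidine nucleotide carrier, had the most distal sites, 26, of which 15 lay upstream and 4 within the gene. Its strongest, 32.6 kb upstream, had signals of 93.1 in replicate 1 and 115.2 in replicate 2. Slc25a25 followed with 22, of which 9 lay within the gene. Slc25a30 and Slc25a51 had 16 each and Slc25a45 had 14. The fewest were at Slc25a2 with 0, Slc25a32 with 1, and Slc25a18 and Slc25a46 with 2 each, followed by Slc25a24, Slc25a31 and Slc25a40 with 3 each.

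At the extremes of the count, promoter signals were high in some members and low in others. Slc25a25, with 22 sites, had a mean promoter signal of 250.4, while Slc25a2, with 0 sites, had no promoter peak in either replicate. Slc25a32 had a promoter signal above 200 and 1 distal site, while the restricted Slc25a48 had a weak promoter and 11 distal sites. The strongest site of Slc25a48, 37.2 kb downstream of its TSS, had 74.3 in replicate 1 and 81.4 in replicate 2. Each value was more than that of its own promoter, 24.98 and 19.6. An exonic site of the gene, 33.7 kb downstream, had 48.5 and 50.8. No site was assigned to a gene by function.

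The members had 343 pairs of a member and a distal site, made up of 326 different sites, since neighbouring members share some. Of the pairs, 183 (53.4%) lay upstream of the TSS, 65 (18.95%) within the gene itself and 53 within 10 kb, at a median distance of 25.8 kb. Of the different sites, 145 were intergenic, 146 intronic and 35 exonic. Their median signal was 20.1, against 19.2 for all 149015 autosomal distal sites.

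A few sites were as strong as promoters. The strongest, 31.1 kb upstream of Slc25a45 in an intron of the non-coding gene Frmd8os (chr19:5846641-5846810), had 191.7 in replicate 1 and 207.7 in replicate 2, above the 83.7 and 99.5 of the Slc25a45 promoter. A site 47.4 kb upstream of Slc25a30 (chr14:75834321-75834470) had 166.9 and 211.4. Close by, a site 42.6 kb upstream had 72.9 and 86.0. An intronic site of Slc25a30, 18.9 kb downstream of its TSS, had 74.6 and 94.0. All of these were well above the median of 20.1.

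Slc25a35 had a site of 169.7 in replicate 1 and 152.1 in replicate 2, 28.3 kb upstream (chr11:68939761-68939910), also above its promoter signal. Slc25a39 had 98.1 and 130.0 at a site 3.95 kb upstream, the nearest of these strong sites. The strongest distal sites of the members without a promoter peak were mostly weak: 18.8 and 17.3 at Slc25a31, 17.1 and 16.6 at Slc25a41, and 16.1 and 13.5 at Slc25a18. Slc25a54 had 48.7 and 73.8 at a site 17.3 kb upstream of its TSS. At Slc25a37 all 4 distal sites lay beyond the 3′ end of the gene, the strongest with 59.2 and 79.2, and there were 0 peaks in the 50 kb upstream of it. The TSS of Slc25a37 lies in the duplicated stretch described above, and how much of these 50 kb that stretch covers was not recorded. No statement on accessibility can be made from missing peaks within it.

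In 3 places, 2 carriers lie side by side. Slc25a29 and Slc25a47 share their promoter peak and all 11 of their distal sites. Slc25a23, with signals of 171.4 and 172.3, and Slc25a41, with no promoter peak, lie 18.2 kb apart on the same strand of chromosome 17, and all 4 distal sites of Slc25a41 are among the 7 of Slc25a23. The strongest of these 4, 17.1 in replicate 1 and 16.6 in replicate 2, lies in an intron of Slc25a23. Slc25a24, at 40.4 and 40.1, and Slc25a54, with no promoter peak, lie 42.7 kb apart on chromosome 3, with 3 and 7 distal sites of which 2 are the same. In each of the last pairs, the member listed as more widely used was the accessible one. That listing was made with earlier results of these data known.

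Related genes outside the rule ranged from strong promoters to none. The 4 X-linked Slc25 genes all showed a peak at the promoter in each replicate: Slc25a14 with 98.2 in replicate 1 and 90.7 in replicate 2, Slc25a53 with 58.8 and 83.7, the ADP/ATP carrier Slc25a5 with 67.1 and 69.2, and Slc25a43 with 10.2 and 12.2. Sex was not recorded, and X-linked signal depends on it, so these are not set against autosomal values. Of family members with other symbols, the outer membrane proteins Mtch1 and Mtch2 had means of 180.9 and 174.1, and the widely found uncoupling protein Ucp2 had 83.5. Ucp1, the uncoupling protein of brown fat, had 12.4 and 10.2, and Ucp3, of skeletal muscle, had no promoter peak.

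Other transport proteins of mitochondria were accessible throughout. The pyruvate carrier subunits Mpc1 and Mpc2 had means of 149.8 and 283.5, and the peak of Mpc2 was shared with Dcaf6. The outer membrane channels Vdac1, Vdac2 and Vdac3 had 112.0, 160.2 and 188.7, the calcium uniporter Mcu had 151.0, and the serine carrier Sfxn1 had 46.6.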

How the data were processed

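Newborn B6NCrl kidney was profiled by DNase-seq in 1 group of 2 biological replicates. Per the file headers, each deposited narrowPeak list was called from 1 alignment of 36-nt reads to mm10, so peaks were called per sample. The sources used here name no aligner, peak caller, threshold or depth, so no precision per peak can be stated. Column 7 holds the deposited signal value, in steps of 1/64, with the authors' scaling not given. The deposited −log10 p-value was not used for any result.

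TSSs came from GENCODE M21, on GRCm38, the same build as mm10. A peak overlapping 1 kb to either side of any TSS of a gene was a promoter peak. Sites were unions of peaks overlapping by at least 1 bp that held peaks of both replicates. A site was a promoter site where its centre lay within 1 kb of a TSS, and otherwise distal. Motifs were exact matches on both strands in the 150 bp of the strongest promoter peak of replicate 1. A word of 36 bases was repeated when it occurred again on either strand of the assembled chromosomes. The members, all gene and motif lists and the carrier classes were chosen with earlier results of these data known. The carrier classes and role groups were assigned by hand, the classes from general knowledge of adult tissues. A member is not reported here by name and not drawn, although the counts and medians include it. Every other member may be named; values were printed for all restricted members, for members without a peak, and for at least the highest and lowest of each role group. The counting steps were tested on simulated peaks. Results are printed for each replicate or as a mean with its SD (n = 2), with no p-value. Python 3.11.15, numpy 2.4.6, pandas 2.3.3, pysam 0.24.0 and matplotlib 3.10.9 were used.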

Additional observations from a re-analysis of the deposited data

How the results depend on the processing

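Of 90 values recomputed under alternative settings, 55 stayed within the spread between replicates or within 1.5 times the count, and 35 moved. The difference in promoter share between ubiquitous and restricted carriers, the only difference recomputed, kept its direction throughout. It could not turn, because every ubiquitous carrier counted had a promoter peak under every setting. The order of the median distal counts of these classes turned with either replicate left out and with the restricted list of 3 genes. The count of members with a promoter peak stayed at 37 of 43 with TSS windows of 500 bp and 2 kb, with the upper 50% of peaks by signal, with lists of equal length and with peak centres inside the window. Counted by protein-coding TSSs alone, it was 36, the difference between ubiquitous and restricted carriers was 66.7 points and the median signal of restricted carriers was 44.1. With the 3 carriers the rule names as the restricted list, 2 had a peak, the difference was 33.3 points, the median signal 90.1 and the median number of distal sites 11. Without members that share a promoter peak, 2 restricted carriers had a peak, the difference was 71.4 points and the median signal 33.2. Leaving out a replicate gave differences of 44.4 to 55.6 points and median signals of restricted carriers of 41.0 to 94.9. The median number of distal sites was then 10 for all members, 8 to 9 for ubiquitous and 9 to 10 for restricted carriers. That median, for all members, ubiquitous and restricted carriers in turn, was 9, 9 and 7 with a window of 500 bp, 5, 5 and 4 with 2 kb, 4, 4 and 3 with the upper 50% of peaks, 4, 3 and 3 within 25 kb, and 16, 16 and 14 within 100 kb. With an overlap of at least 50% of each peak it was 6 for ubiquitous and 5 for restricted carriers. The cause of these shifts was not tested beyond what each setting leaves out. Without Slc25a37, an alternative chosen after seeing the data, 37 of 42 members had a peak. No paired analysis was possible because the study has a single group. The unstated peak threshold of the authors limits what weak promoters such as those of Slc25a18 and Slc25a48 show.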
